A study of Mus musculus with 6 samples.

Results

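The expression of 10 genes of the Hippo-YAP pathway was followed in craniofacial tissue of E12.5 mouse embryos. They are the coactivator genes *Yap1* and *Wwtr1*, which encodes TAZ, the TEAD transcription factor genes *Tead1*, *Tead2*, *Tead3* and *Tead4*, and the YAP-TEAD target genes *Ctgf*, *Cyr61*, *Ankrd1* and *Amotl2*. They were chosen by name, and all 10 were found among the 38553 genes of the deposited table. The study compared 3 control embryos of the genotype *Rbfox2* flox/flox, which carry no Cre, with 3 *Rbfox2* mutant embryos of the genotype *Pax3*Cre/+:*Rbfox2* flox/flox. The Cre is a knock-in at *Pax3*, so each mutant also has 1 *Pax3* allele that carries Cre. It is active in the neural crest and also in mesoderm that forms the somites, so the deletion is not limited to the crest. The dissected tissue also holds cells in which the Cre is not active. Tissue was taken from both genotypes at E12.5, and poly(A)+ RNA was sequenced. Expression is given as FPKM, which divides the fragments of a gene by its length and by the total that mapped.

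In the Hippo pathway, the kinases MST1/2 and LATS1/2 phosphorylate YAP and TAZ, which are then held in the cytoplasm or degraded. When the kinases are inactive, YAP and TAZ enter the nucleus and, since they do not bind DNA themselves, act through TEAD factors to drive genes such as *Ctgf* and *Cyr61*. The pathway responds to cell contact, tension and growth signals, and YAP and TAZ are known to act in neural crest cells and their craniofacial derivatives. Much of this control acts on the proteins, which RNA-Seq does not measure.

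TEAD factors bind the sequence GGAATG, which reads CATTCC on the other strand. Both were searched in the 250 bases before each RefSeq start site of GRCm38.p6. Such windows were at hand for 7 of the 10 genes, without *Ctgf*, *Tead1* and *Tead4*, and 12.6% of 32851 windows of all genes held the motif. The 7 genes had 10 windows, some of which overlap, and 8 of them held it. By gene, it was present in a window of 6 of the 7, *Yap1*, *Wwtr1*, *Tead3*, *Cyr61*, *Amotl2* and *Ankrd1*. The share of all genes with the motif in any window was not counted. A match shows only that these letters are present. The matches of the 3 target genes are shown because target levels are compared below, read 5′ to 3′ on the strand of the gene with the motif in capitals and 12 bases on either side. They lie at chr3:145650071-145650100 on the minus strand for *Cyr61*, at chr9:102717727-102717756 on the plus strand for *Amotl2*, and at chr19:36120037-36120066 and chr19:36119950-36119979 on the minus strand for *Ankrd1*. In the GENCODE annotation of GRCm38 the sites of *Amotl2* and *Ankrd1* also lie within the span of the same gene, and an exon of that gene overlaps each window.
Cyr61: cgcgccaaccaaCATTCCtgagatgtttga
Amotl2: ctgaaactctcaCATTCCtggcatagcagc
Ankrd1, farther from the start: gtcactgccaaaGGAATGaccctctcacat
Ankrd1, nearer to the start: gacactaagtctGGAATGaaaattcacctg

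The motif of *Cyr61* begins 103 bases before the start site. *Cyr61* is the target whose control and mutant values did not overlap, with a gap of 0.0478 FPKM. Such separation was seen in 5.0% of all genes tested, and a link to the motif was not tested. The whole window of this gene spans chr3:145649986-145650235 on the minus strand, with the same motif in capitals.
Cyr61 window: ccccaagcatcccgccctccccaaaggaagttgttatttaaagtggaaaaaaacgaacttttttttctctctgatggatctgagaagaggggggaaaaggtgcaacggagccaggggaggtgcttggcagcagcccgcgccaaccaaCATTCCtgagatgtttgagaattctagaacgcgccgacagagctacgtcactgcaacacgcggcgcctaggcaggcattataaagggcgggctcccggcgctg

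Summed FPKM ran from 528123 to 590174 per sample. The targeted gene *Rbfox2* was at 58.4, 65.0 and 61.3 FPKM in controls and at 38.1, 36.3 and 34.3 in mutants. *Pax3* was at 8.83, 11.9 and 11.1 FPKM in controls and 8.62, 7.59 and 8.36 in mutants. On the first principal component, with 54.7% of the variance, replicate 1 of each group lay far from replicates 2 and 3, and differences are therefore also given within replicate 1 and within replicates 2 and 3. Y-linked genes had a mean FPKM of 14.4 and 13.9 in mutant replicates 1 and 2 and of at most 0.0541 in the other samples, so the sex of the embryos was not balanced between the groups. The 10 markers of cranial mesenchyme were expressed in every sample, with a summed FPKM of 450 to 504 in controls and 407 to 497 in mutants. Of these 10, 8 had a lower estimate in mutants in the fit described below, with a median log2 difference of -0.053.

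No difference between control and mutant tissue passed the test for any of these genes. Of the 10, 8 passed a filter, which asks that every sample of at least 1 genotype exceeds an FPKM of 5. The study used this cut-off for transcripts, and here it was applied to genes. These 8 were tested on log2(FPKM + 1) with limma among 10061 genes. No member had an unadjusted p under 0.05 in limma, where 1.66% of all genes tested had one. After Benjamini-Hochberg adjustment the p of each member was 1.0, and no gene of the whole table passed an adjusted p of 0.05 (0%). The deleted gene *Rbfox2*, with a log2 fold change of -0.75, did not pass either, at an adjusted p of 0.138 in limma. The lack of a call thus does not show that a member was unchanged. The estimate was lower in mutants for 6 members and higher for 2, with a median of -0.071 against 0.0057 for all genes, of which 47.2% had a lower estimate. The median size of the difference was 0.093 for the members and 0.054 for all genes. In whole tissue, fewer cells of a type and less RNA per cell cannot be told apart.

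**Figure D1:**
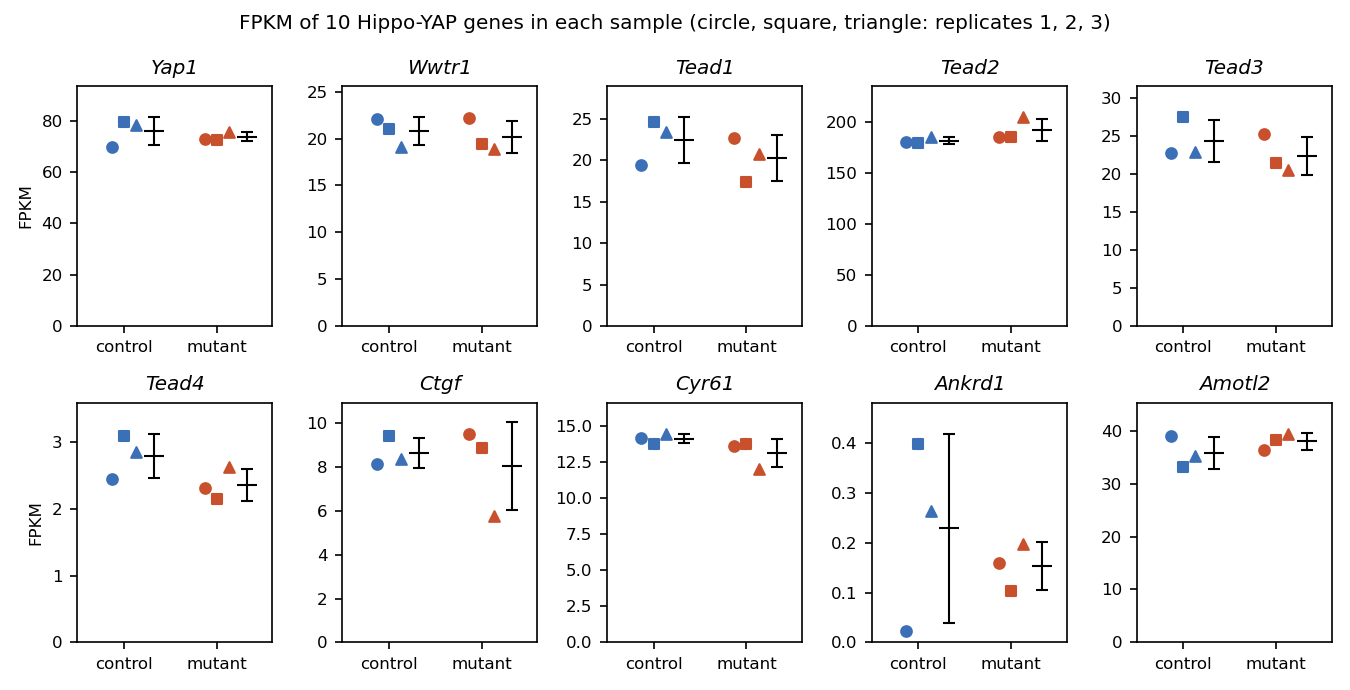
FPKM (y axis, from 0) of each of the 10 genes in the 3 control (blue) and 3 mutant (red) samples, with circles, squares and triangles for replicates 1, 2 and 3 and bars for mean ± SD. The control and mutant points overlap in every panel except *Tead2* and *Cyr61*, and *Ankrd1* lies under 0.4 FPKM in all samples.

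*Yap1* (ENSMUSG00000053110, chromosome 9 from 7931999 to 8004596 of GRCm38, minus strand) encodes the coactivator YAP. Its FPKM was 69.7, 79.7 and 78.6 in control replicates 1, 2 and 3 and 73.1, 72.6 and 75.9 in the mutants. The 3 mutant values lay inside the range of the controls. The means were 76.0 ± 5.45 and 73.9 ± 1.77 (SD, n = 3 each), a log2 fold change of -0.039 (standard error 0.081). The 95% interval from limma allows a mutant level of FPKM + 1 between 85.3% and 111% of the control. The transcript *Gm20416* overlaps *Yap1* on the other strand.

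*Wwtr1* (ENSMUSG00000027803, chromosome 3 from 57455649 to 57575910, minus strand), the gene of TAZ, was at 22.1, 21.1 and 19.1 FPKM in controls and 22.2, 19.4 and 18.9 in mutants. In both groups replicate 1 was the highest. The means of 20.8 ± 1.496 and 20.2 ± 1.75 (SD, n = 3 each) gave a log2 fold change of -0.042 (standard error 0.093), and the interval of FPKM + 1 ran from 83.4% to 113% of the control. A processed pseudogene on the other strand, *Gm16016*, lies within the gene.

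The balance between the coactivator genes can be read within a sample, where the scaling of the sample cancels. *Yap1* made up 75.9%, 79.1% and 80.4% of the summed FPKM of *Yap1* and *Wwtr1* in controls and 76.7%, 78.9% and 80.1% in mutants. The groups covered the same range, and the share differed by 0.084 percentage points (exact permutation test, two-sided, p = 1.0). The FPKM of *Yap1* was 3.68 times that of *Wwtr1* in controls and 3.68 times in mutants. The sum of both genes was 91.8 to 100.7 FPKM in controls and 92.0 to 95.2 in mutants.

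The genes of the TEAD factors, the DNA-binding partners of YAP and TAZ, differed widely in level. *Tead2* was the highest, at 187 FPKM over the 6 samples, *Tead3* and *Tead1* were at 23.4 and 21.4, and *Tead4* was at 2.58. *Tead2* ranked 403 among all 38553 genes by mean FPKM.

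*Tead2* (ENSMUSG00000030796, chromosome 7 from 45215753 to 45233644, plus strand) was at 180.3, 179.9 and 185.5 FPKM in controls and 186.0, 185.8 and 204.9 in mutants. Each mutant value was above each control value, and the lowest mutant was 0.309 FPKM above the highest control. The exact permutation test, two-sided, gave p = 0.10, the smallest p that 3 samples against 3 can give. Such separation was seen in 2 of the 8 members tested and in 5.0% of all genes tested. The means were 181.9 ± 3.14 and 192.2 ± 10.9 (SD, n = 3 each), a log2 fold change of 0.078 (standard error 0.080), with an interval of 92.6% to 120.3% of the control. This value depends on mutant replicate 3, without which the log2 fold change was 0.031. *Tead2* overlaps *Cd37* on the other strand, and whether counting used the strand is not given in the sources used here.

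*Tead1* (ENSMUSG00000055320, chromosome 7 from 112679318 to 112906807, plus strand) was at 19.4, 24.6 and 23.4 FPKM in controls and 22.7, 17.3 and 20.8 in mutants. The lowest value of all was mutant replicate 2 and the highest control replicate 2. The means of 22.5 ± 2.73 and 20.3 ± 2.73 (SD, n = 3 each) gave a log2 fold change of -0.14 (standard error 0.13), with an interval of 73.4% to 112% of the control. *Tead1* overlaps the noncoding gene *2310014F06Rik* on the other strand and the microRNA gene *Gm44462* on the same strand.

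*Tead3* (ENSMUSG00000002249, chromosome 17 from 28331671 to 28350817, minus strand) was at 22.7, 27.4 and 22.8 FPKM in controls and 25.2, 21.4 and 20.5 in mutants. As for *Tead1*, the mutant was higher than the control in replicate 1 and lower in replicates 2 and 3. The means of 24.3 ± 2.70 and 22.4 ± 2.48 (SD, n = 3 each) gave a log2 fold change of -0.12 (standard error 0.11), with an interval of 76.8% to 111% of the control.

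*Tead4* (ENSMUSG00000030353, chromosome 6 from 128224288 to 128300823, minus strand) did not pass the filter. Its FPKM was 2.44, 3.10 and 2.85 in controls and 2.32, 2.15 and 2.62 in mutants. The mutant was lower in each of the 3 replicate numbers, which are not known to be pairs, but mutant replicate 3 was above control replicate 1. The difference on the log2(FPKM + 1) scale was -0.17 (exact permutation test, two-sided, p = 0.20), and a scale with a pseudocount of 1 understates the change of a gene at this level. A processed pseudogene, *Gm21893*, lies within the gene on the other strand.

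As a share of the summed FPKM of the TEAD genes, *Tead2* made up 80.2%, 76.5% and 79.1% in controls and 78.7%, 82.0% and 82.3% in mutants. The mutant mean was 2.41 percentage points higher (exact permutation test, two-sided, p = 0.30), with control replicate 1 above mutant replicate 1. *Tead1* made up 7.64% to 10.5% and *Tead3* 8.25% to 11.7% over the 6 samples, with exact permutation p of 0.20 and 0.40. *Tead4* made up 1.09%, 1.32% and 1.21% in controls and 0.981%, 0.948% and 1.05% in mutants. Here the groups did not overlap, with control replicate 1 and mutant replicate 3 next to each other, and the exact permutation p was again the smallest possible, 0.10. With the share of *Yap1* above, 5 shares were compared, and after Benjamini-Hochberg adjustment over them the exact permutation p of each TEAD share was 0.50. The sum of the TEAD genes was 225 to 235 FPKM in controls and 227 to 249 in mutants.

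**Figure D2:**
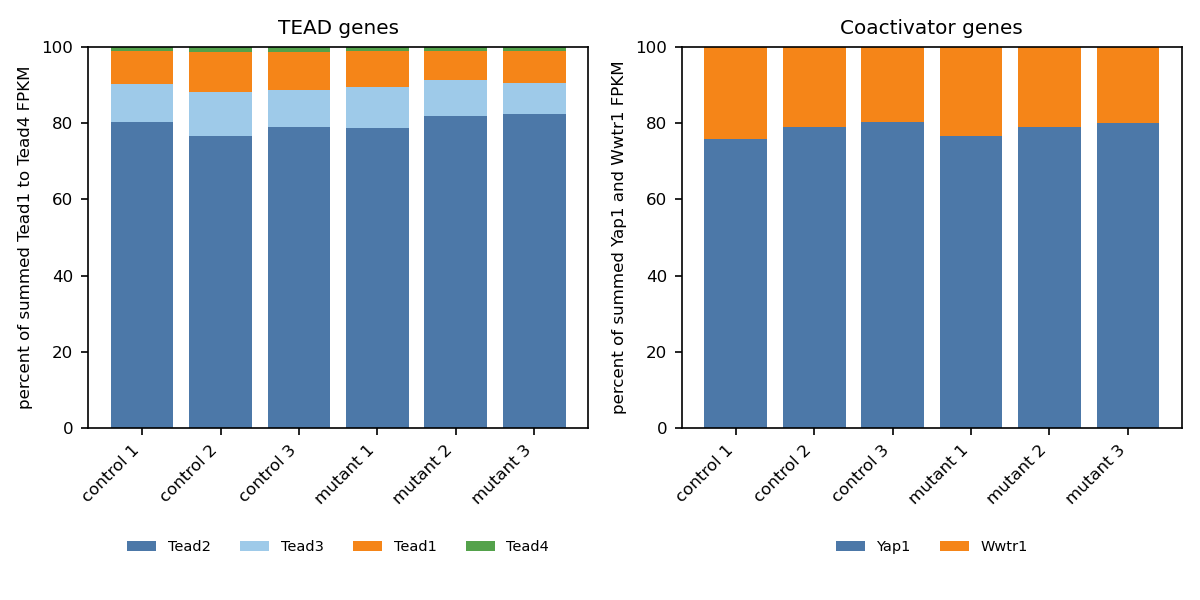
Share (percent, y axis) of each TEAD gene in the summed FPKM of *Tead1* to *Tead4* (left) and of *Yap1* and *Wwtr1* in their sum (right), 1 bar for each of the 3 control and 3 mutant samples. *Tead2* takes 76.5% to 82.3% of the TEAD sum and *Yap1* 75.9% to 80.4% of the coactivator sum in every sample.

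Among the targets, *Cyr61* (ENSMUSG00000028195, chromosome 3 from 145646976 to 145649981, minus strand, also named *Ccn1*) encodes a secreted matricellular protein. Its FPKM was 14.2, 13.8 and 14.4 in controls and 13.6, 13.7 and 12.03 in mutants. Each mutant value was below each control value, with a gap of 0.0478 FPKM between mutant replicate 2 and control replicate 2. The means were 14.1 ± 0.329 and 13.1 ± 0.945 (SD, n = 3 each), and the exact permutation p was 0.10, which is as small as it can be. The log2 fold change was -0.10 (standard error 0.080), with an interval of 81.8% to 106% of the control, and without mutant replicate 3 it was -0.044. The unadjusted p of *Cyr61* in limma, 0.250, was the smallest of the 8 members, and its adjusted p was 1.0.

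*Ctgf* (ENSMUSG00000019997, chromosome 10 from 24595442 to 24598683, plus strand, also named *Ccn2*), which encodes connective tissue growth factor, was at 8.12, 9.41 and 8.37 FPKM in controls and 9.51, 8.88 and 5.75 in mutants. Mutant replicate 3 was the lowest sample and mutant replicate 1 the highest, so the controls lay inside the mutant range. The means of 8.64 ± 0.687 and 8.05 ± 2.02 (SD, n = 3 each) gave a log2 fold change of -0.11 (standard error 0.17), with an interval of 69.8% to 122% of the control, the widest of the 8. Without mutant replicate 3 the sign turned, to 0.083. With the mean of 4 Y-linked genes as a covariate it was -0.52, with a standard error of 0.13 and an adjusted p of 0.999 in limma, in a fit that rests on mutant replicate 3, since Y-linked genes were expressed in the other mutants. The transcript *Gm15270* overlaps *Ctgf* on the other strand.

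Mutant replicate 3 was thus the lowest of the 6 samples for both CCN-family targets. The sum of *Ctgf* and *Cyr61* was 22.3, 23.2 and 22.8 FPKM in controls and 23.1, 22.6 and 17.8 in mutants. The other CCN genes are *Nov*, *Wisp1*, *Wisp2* and *Wisp3*, of which 1 passed the filter, *Wisp1*, at 5.97, 7.86 and 5.90 FPKM in controls and 6.57, 7.03 and 5.004 in mutants. The log2 fold change of *Wisp1* was -0.074 with a standard error of 0.15, and its adjusted p in limma was 1.0.

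*Amotl2* (ENSMUSG00000032531, chromosome 9 from 102716672 to 102733418, plus strand) encodes an angiomotin-like protein that binds YAP and holds it outside the nucleus, so it is both a target and an inhibitor. Its FPKM was 39.0, 33.1 and 35.3 in controls and 36.3, 38.3 and 39.4 in mutants. The groups overlapped, with control replicate 1 above mutant replicates 1 and 2. The means of 35.8 ± 2.96 and 38.0 ± 1.58 (SD, n = 3 each) gave a log2 fold change of 0.086 (standard error 0.085), with an interval of 92.3% to 122% of the control.

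*Ankrd1* (ENSMUSG00000024803, chromosome 19 from 36111961 to 36120099, minus strand), which encodes an ankyrin repeat protein best known from heart and skeletal muscle, was hardly detected. It was at 0.0237, 0.398 and 0.263 FPKM in controls and 0.158, 0.103 and 0.198 in mutants. The mutants lay inside the range of the controls (exact permutation test, two-sided, p = 0.60), and the number of fragments behind these values is unknown. The 10 skeletal muscle markers together reached 178, 488 and 295 FPKM in the controls, against 175, 273 and 211 in the mutants, so control replicate 2 was highest for both. All 7 muscle markers tested had a lower estimate in mutants, none with an unadjusted p under 0.05 in limma, and their part in the values of *Ankrd1* was not tested.

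In order of mean FPKM over the 6 samples, the levels were *Tead2* 187, *Yap1* 74.9, *Amotl2* 36.9, *Tead3* 23.4, *Tead1* 21.4, *Wwtr1* 20.5, *Cyr61* 13.6, *Ctgf* 8.34, *Tead4* 2.58 and *Ankrd1* 0.191. Neighbours in this order differed in the same direction in 6 of 6 samples with no overlap of their ranges, except in 2 cases. *Tead3* was above *Tead1* in 4 of 6 samples, and *Tead1* was above *Wwtr1* in 4 of 6, so neither pair differed beyond its spread. *Tead3* was above *Wwtr1* in 6 of 6 samples, although their ranges overlapped. The comparison is per gene length.

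The difference between the genotypes was also read by replicate, where replicate 1 holds 1 sample of each genotype and so has no spread of its own. In replicate 1 the mutant was higher than the control for *Tead1*, *Tead3* and *Ctgf*, by 0.22, 0.14 and 0.21 on the log2 scale, and *Amotl2* was at -0.10. In replicates 2 and 3 the same genes were at -0.32, -0.25, -0.28 and 0.18. The interaction term in limma, in which the spread between samples comes from replicates 2 and 3 alone, had an unadjusted p of 0.018 for *Tead1*, 0.048 for *Amotl2*, 0.057 for *Tead3* and 0.168 for *Ctgf*, and the adjusted p was at least 0.670 for every member, so no member was shown to differ between the replicates. An unadjusted p under 0.05 was found for 2 of the 8 members and 7.0% of all genes, and the difference between these shares was not tested.

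*Yap1* was at 0.066 in replicate 1 and -0.091 in replicates 2 and 3, and *Wwtr1* at 0.0042 and -0.065. *Tead2* and *Cyr61* had the same sign in both sets, at 0.045 and 0.094 for *Tead2* and -0.055 and -0.12 for *Cyr61*. In a fit of replicates 2 and 3 alone, *Tead1*, *Tead3* and *Amotl2* had an unadjusted p under 0.05 in limma, where 11.0% of all genes had one, and their adjusted p was 0.409, 0.437 and 0.430.

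**Figure D3:**
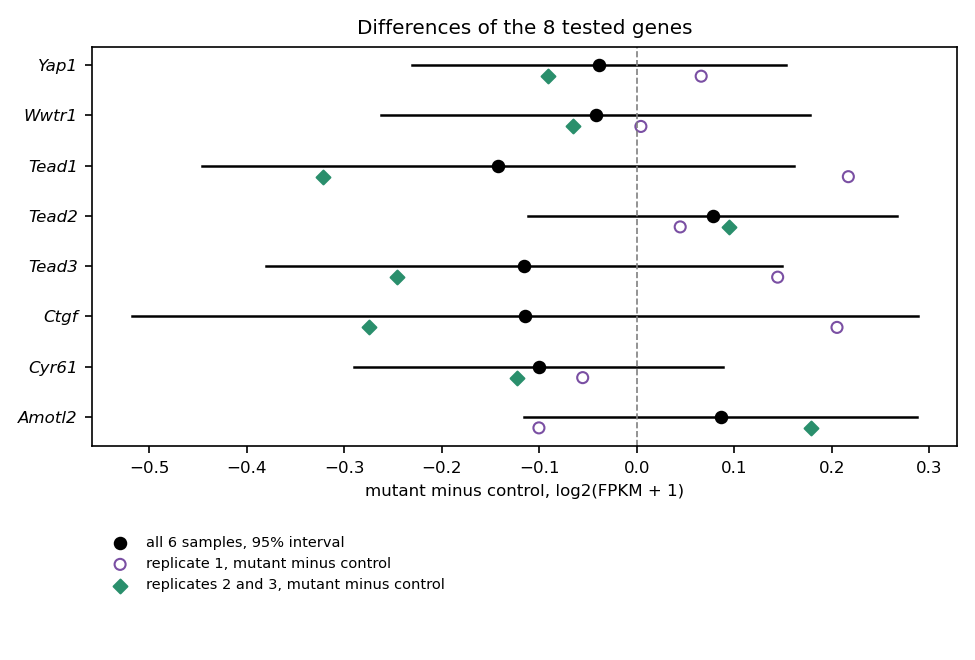
Mutant minus control on the log2(FPKM + 1) scale (x axis) for the 8 tested genes, with black points and lines for the estimate over all 6 samples and its 95% interval from limma, open circles for replicate 1 and diamonds for replicates 2 and 3. Every interval includes 0, and the circle and diamond of *Tead1*, *Tead3*, *Ctgf*, *Amotl2*, *Yap1* and *Wwtr1* lie on opposite sides of 0.

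Upstream of YAP, a list of 27 genes held the core kinases and their scaffolds (*Stk3*, *Stk4*, *Sav1*, *Lats1*, *Lats2*, *Mob1a*, *Mob1b*), the membrane-near regulators *Nf2*, *Wwc1*, *Wwc2* and *Frmd6*, the kinases *Taok1* to *Taok3* and *Map4k4*, the angiomotins *Amot* and *Amotl1*, *Ptpn14*, the LIM proteins *Limd1*, *Ajuba* and *Wtip*, the atypical cadherins *Fat1*, *Fat4* and *Dchs1*, and the TEAD cofactors *Vgll2*, *Vgll3* and *Vgll4*. Of these, 26 were tested, 11 with a higher and 15 with a lower estimate in mutants. None had an unadjusted p under 0.05 in limma, and the median difference was -0.0090. The genes of highest level were *Map4k4*, a kinase that acts on LATS, at 71.7, 84.1 and 88.6 FPKM in controls and 78.2, 87.1 and 91.1 in mutants, and *Vgll4*, whose product competes with YAP for TEAD, at 50.9, 52.9 and 48.9 in controls and 56.9, 50.5 and 50.4 in mutants. In both the groups overlapped, with log2 fold changes of 0.072 (standard error 0.11) and 0.045 (standard error 0.081).

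A list of 18 further YAP-TEAD target genes gave 14 that were tested, 5 with a higher and 9 with a lower estimate. None had an unadjusted p under 0.05 in limma, and the median difference was -0.060. The highest in level were *Igfbp3*, which encodes a binding protein of insulin-like growth factors, and *Axl*, a receptor tyrosine kinase. *Igfbp3* was at 45.2, 65.9 and 54.4 FPKM in controls and 43.8, 48.8 and 36.5 in mutants. The log2 fold change of -0.34 had a standard error of 0.16 and an adjusted p of 1.0 in limma. *Axl* was at 28.4, 41.4 and 35.5 in controls and 29.0, 35.7 and 33.4 in mutants, and its log2 fold change was -0.088 (standard error 0.15). For both genes the lowest control was replicate 1 and the highest replicate 2, and the groups overlapped. *Lats2* and *Ptpn14* stand in both lists.

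*Ctgf*, *Cyr61* and *Ankrd1* are also known to answer to serum response factor, and *Cyr61* and *Ctgf* behave as immediate early genes in stimulated cells. Of 10 immediate early genes, 4 were tested, 2 with a higher and 2 with a lower estimate. *Jun*, at 40.5, 30.8 and 32.6 FPKM in controls and 40.7, 30.5 and 31.1 in mutants, and *Ier2*, at 29.9, 22.6 and 24.6 and at 30.8, 23.8 and 28.3, were the highest, and replicate 1 was the highest of its group for both. Of 10 targets of serum response factor, all 8 tested had a lower estimate, with a median of -0.28, and none had an unadjusted p under 0.05 in limma. This list was chosen with earlier results of these data known, so its shared direction is a description and was not tested. *Tpm1*, a tropomyosin, was at 213, 361 and 317 FPKM in controls and 179, 233 and 228 in mutants, and *Flna*, the actin crosslinker filamin A, at 142, 195 and 172 and at 129, 146 and 159. Their log2 fold changes were -0.45 (standard error 0.21) and -0.22 (standard error 0.14), with adjusted p-values of 1.0 in limma, and replicate 1 was the lowest of its group for both.

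With the replicate number as a block, 6 of 51 tested genes of these 5 lists had an unadjusted p under 0.05 in limma, which is 11.8%, against 6.0% of all genes, and none of the members did. The 6 were *Acta2*, *Flna*, *Igfbp3*, *Myl9* and *Tpm1*, all lower in mutants, and *Taok3*, which was higher. Of these, *Acta2*, *Flna*, *Myl9* and *Tpm1* come from the list of serum response factor targets. That list was chosen with earlier results of these data known, so the share of 11.8% is a description and was not tested. None of them had an adjusted p under 0.05.

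**Figure D4:**
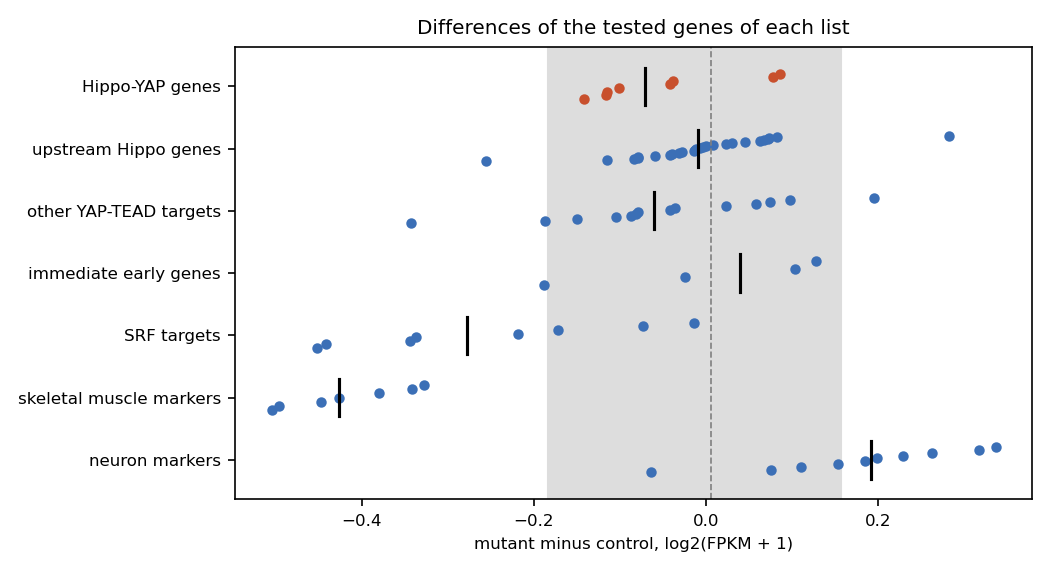
Mutant minus control on the log2(FPKM + 1) scale (x axis) for each tested gene of 7 lists, 1 point a gene, with a black bar for the median of the list and a grey band for the 5th to 95th percentile of all 10061 genes. The Hippo-YAP genes (red) lie within the band, with a median of -0.071. The medians of the targets of serum response factor, the skeletal muscle markers and the neuron markers are -0.28, -0.43 and 0.19. The lists were chosen with earlier results of these data known.

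Levels of markers of other cell types varied between the samples. Of 10 neuron markers, 4 had an unadjusted p under 0.05 in limma, all higher in mutants, against 0.706% of all genes in that direction, and their summed FPKM was 838 to 901 in controls and 973 to 1075 in mutants. None had an adjusted p under 0.05. The 10 endothelial markers, cells in which *Cyr61* and *Ctgf* are known to be expressed, summed to 156 to 181 FPKM in controls and 157 to 172 in mutants. Of the 9 tested, 6 had a higher and 3 a lower estimate in mutants, with a median of 0.0064. Only 1, which was lower, had an unadjusted p under 0.05 in limma, against 1.66% of all genes in either direction. This was *Egfl7*, at 36.7, 39.6 and 35.0 FPKM in controls and 32.2, 34.0 and 30.5 in mutants, where the groups did not overlap, with an unadjusted p of 0.046 and an adjusted p of 1.0 in limma. Epithelial markers summed to 149 to 244 in controls and 155 to 194 in mutants, and 7 of the 9 tested had a lower estimate, with a median of -0.19. Forebrain progenitor markers summed to 367 to 627 and 521 to 661, with 9 of 10 estimates higher and a median of 0.093. The 8 erythroid markers in the table summed to 4776 to 9777 and 6464 to 10481, and all 6 tested had a higher estimate, with a median of 0.45. None of the genes of these 3 lists had an unadjusted p under 0.05 in limma. Cartilage markers, a tissue that expresses *Ctgf*, summed to 203, 293 and 214 FPKM in controls and 266, 230 and 194 in mutants, with mutant replicate 3 the lowest as for *Ctgf*. Of the 6 cartilage markers tested, 5 had a lower estimate in mutants, with a median of -0.033. The part of these cell types in the values of the 10 genes was not tested.

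The profile of *Yap1* over the 6 samples, centred on its mean on the log2(FPKM + 1) scale, was closest to those of *Mlec*, *Zfp825* and *Zscan22*, with root mean square differences of 0.0061, 0.018 and 0.018. The range of *Yap1* itself was 0.19, and 3231 of the tested genes lay within 0.1 of it, so such closeness was common. *Ctgf*, with a range of 0.64, was closest to *Wnt11*, *Osr1* and *Hic1*, at 0.066, 0.075 and 0.076, and 17 genes lay within 0.1. These are descriptions over 6 samples.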

How the data were processed

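Poly(A)+ RNA of craniofacial tissue from 3 control and 3 *Rbfox2* mutant embryos was sequenced. The authors prepared stranded poly(A)+ libraries, aligned paired-end reads to GRCm38 with STAR and deposited FPKM values, 1 per gene and sample. The submitters' processing notes also name FastQC 0.11.4 and Cuffdiff. The annotation and the counting step are not given in the sources used here. The deposited table of all samples and the 6 tables of single samples held the same values (0 differences). Samples were grouped by genotype from their labels.

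FPKM keeps no read counts. Among values above 0 and under 0.05, between 16.9% and 31.2% of genes stood at 1 ratio in the 6 pairs among replicates 2 and 3, but at most 1.58% in the 8 pairs that join a first replicate to one of these and 7.29% between the first replicates, so depth per value is unknown and no counting error is given.

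Genes were kept where every sample of at least 1 genotype had an FPKM above 5. They were compared on log2(FPKM + 1), with a pseudocount of 1, by limma 3.58.1 (R 4.3.3), using an intensity trend and Benjamini-Hochberg adjustment over all genes tested. The fit was tested on simulated data. The p-values measure the spread between embryos of a group. In the main fit this spread includes the distance of replicate 1 from the others, for which it has no term. An unadjusted p under 0.05 in limma was found for 1.66% of genes in that fit and for 6.0% with the replicate block. Single values and shares were compared by exact two-sided permutation tests, whose smallest p with 3 against 3 is 0.10. Same-numbered control and mutant samples deviated together from their group means (correlations across genes of 0.64, 0.26 and 0.51). Across numbers, control replicate 3 and mutant replicate 2 reached 0.40 and control replicate 2 and mutant replicate 3 0.23, so the values set replicate 1 apart but do not tell numbers 2 and 3 from each other, and the labels tie no litter to it.

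The members and the lists were chosen with earlier results of these data known. All members are named, and of each pathway list the genes with an unadjusted p under 0.05 and the 2 of highest mean FPKM, with the 3 closest profiles to *Yap1* and *Ctgf*. *Wisp1*, the only tested gene of its list, *Egfl7* and the genes called with the replicate block were named after their values were seen. Positions come from GENCODE M21 and promoter windows from RefSeq (GRCm38.p6).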

Additional observations from a re-analysis of the deposited data

How the results depend on the processing

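The 16 alternatives were a pseudocount of 0.1, median ratio scaling, quantile normalization, an FPKM filter of 1, no filter, limma without trend, the replicate block, a term for the first replicates, replicates 2 and 3 only, a Y-linked covariate and each of the 6 samples left out. No member had an adjusted p under 0.05 in any of them. The number of members with an unadjusted p under 0.05 was 0, also with the replicate block and with any sample left out, except for 3 (*Tead1*, *Tead3* and *Amotl2*) in replicates 2 and 3 only and 1 (*Ctgf*) with the Y-linked covariate. Of all genes tested in limma, 11.0% had one in replicates 2 and 3 only and 1.75% with the Y-linked covariate. With 1 sample left out, *Wwtr1* ran from -0.11 to 0.0019 and *Ctgf* from -0.24 to 0.083. *Wwtr1* turned from -0.042 to 0.0019 without control replicate 1 and to 0.00099 without mutant replicate 3, and *Ctgf* to 0.083 without mutant replicate 3, while the other tested members kept their sign in all alternatives. *Yap1* ranged from -0.098 to -0.00022, *Tead1* from -0.32 to -0.038, *Tead2* from 0.031 to 0.17, *Tead3* from -0.25 to -0.030, *Cyr61* from -0.21 to -0.044 and *Amotl2* from 0.033 to 0.18. *Tead4* was tested with the filter of 1 and with no filter, at -0.17, and *Ankrd1* with no filter, at -0.080.

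The count of all genes with an unadjusted p under 0.05 was 167. It was 304 with the filter of 1, 663 with no filter, 604 with the replicate block, 611 with the term for the first replicates and 1130 in replicates 2 and 3 only. With 1 sample left out it ran from 78 without control replicate 2 to 690 without control replicate 1, with 414 without mutant replicate 1 and 110 without mutant replicate 2. With an adjusted p under 0.05 there were 0 genes, also with the replicate block, but 3 with the term for the first replicates (*Fkbp7*, *Miat* and *Rbfox2*), 4 in replicates 2 and 3 only (*4833420G17Rik*, *Cdk5rap1*, *Fkbp7* and *Rbfox2*) and, with 1 sample left out, 0 to 5, the 5 being *Xist* and the Y-linked *Uty*, *Kdm5d*, *Eif2s3y* and *Ddx3y* without mutant replicate 3.

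Of the pathway lists, 0 genes had an unadjusted p under 0.05 in limma. Shares for the alternatives are of the list genes tested, against those of all genes. Median ratio scaling gave 2, *Acta2* and *Tpm1* (3.92% against 1.71%), and quantile normalization the same 2 (3.92% against 1.78%). The filter of 1 gave 1, *Vgll2* (1.64% against 2.27%), and the Y-linked covariate 2, *Igfbp3* and *Vgll3* (3.92% against 1.75%). There were 6 with the replicate block (11.8% against 6.0%) and 7 with the term for the first replicates (13.7% against 6.07%). In replicates 2 and 3 only there were 15 (29.4% against 11.0%). With 1 sample left out the count ran from 0 to 13, with 13 without control replicate 1 (25.5% against 6.75%), 3 (*Acta2*, *Igfbp3* and *Tagln*) without mutant replicate 2 (5.88% against 1.09%) and 2 (*Taok3* and *Tgfb2*) without mutant replicate 1 (3.92% against 4.08%). The difference between these shares was not tested. These genes were named after their values were seen, and the cause was not tested. Of the 7 with the term for the first replicates, *Acta2*, *Flna*, *Myl9*, *Tagln* and *Tpm1* come from the list of serum response factor targets. That list was chosen with earlier results of these data known.

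In replicates 2 and 3 only, the share of *Tead2* in the TEAD sum was 4.34 percentage points higher in mutants, against 2.41 over all samples, and that of *Tead1* was lower, at -2.21 against -1.15. With 1 sample left out these differences ran from 1.38 to 3.55 and from -1.68 to -0.699. The paired difference with the replicate block has the same mean for each share.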

Other observations

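The atypical cadherin genes *Fat1* and *Fat4*, whose products act upstream of the Hippo kinases, varied more over the 6 samples, relative to their level, than the 8 tested members did. Within the mutants alone, *Ctgf* varied more, with an SD of 25.1% of its mean, against 18.6% for *Fat1* and 22.1% for *Fat4*. *Fat1* and *Fat4* were singled out after their values were seen. *Fat1* was at 8.36, 25.5 and 20.1 FPKM in control replicates 1, 2 and 3 and 12.9, 16.7 and 18.9 in the mutants. *Fat4* was at 5.76, 20.6 and 16.4 in controls and 10.1, 14.6 and 15.8 in mutants. In both genes replicate 1 was the lowest of each group, and the groups overlapped.

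*Vgll2*, a TEAD cofactor gene of head mesenchyme and muscle, was under the filter, at 2.85, 3.79 and 2.71 FPKM in controls and 2.78, 1.89 and 1.66 in mutants. Mutant replicates 2 and 3 were the lowest of the 6 samples. *Vgll3* had FPKM of 9.50, 13.1 and 11.2 in controls, against 10.2, 10.8 and 7.01 in mutants. Mutant replicate 3 was the lowest, as for *Ctgf* and *Cyr61*.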
